A study of Homo sapiens with 12 samples.

Results

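The transcripts described here are those of 10 genes of the ATF4 branch of the integrated stress response: EIF2AK1, ATF4, ATF3, DDIT3, TRIB3, CHAC1, ASNS, SESN2, DDIT4 and PPP1R15A. They were taken by gene name from the table of 58735 genes, as ATF4, genes known as its stress targets and the heme-regulated kinase EIF2AK1, with earlier results of these data known. Each of the 10 names had 1 row in the table, and all 10 were among the 20821 genes with enough reads to be tested. RNA was sequenced from K562, an established human erythroleukemia line driven by the fusion kinase BCR-ABL1, after nilotinib, an inhibitor of that kinase, and hemin, the oxidized, ferric form of heme, which starts hemoglobin synthesis in these cells.

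There were 4 groups of 3 biological replicates. Mock DMSO received the solvent alone, mock nilotinib received 0.1 μM nilotinib, hemin DMSO received the solvent and then 50 μM hemin for 24 h, and hemin nilotinib received 0.1 μM nilotinib and then 50 μM hemin for 24 h. All 4 groups are 1 cell line, and the mock groups stand at 0 h of hemin. By the study's methods, nilotinib or the solvent was given 24 h before hemin, and the mock and hemin samples were taken 0 h and 24 h after hemin. The effect of hemin and that of 24 h more since the first agent cannot be told apart, in cells with nilotinib as in those without, and this holds for the interaction too.

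The integrated stress response joins several alarms on protein synthesis. A kinase of the eIF2α family is switched on by heme shortage (EIF2AK1, also called HRI), by unfolded proteins in the endoplasmic reticulum (EIF2AK3, PERK), by amino acid shortage (EIF2AK4, GCN2) or by double-stranded RNA (EIF2AK2, PKR), and phosphorylated eIF2α slows translation in general while ATF4 mRNA is translated better. ATF4 protein then raises the transcription of other stress factors, of amino acid enzymes and of PPP1R15A, which removes the phosphate again. In red cell precursors EIF2AK1 matches globin synthesis to the supply of heme. RNA-seq gives transcript levels only, so neither phosphorylated eIF2α nor ATF4 protein was measured here.

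The libraries held 33457078 to 50506990 counts, so that 3 counts equalled 0.0594 to 0.0897 CPM, the counts of a gene relative to those of its whole library. Levels below are CPM scaled by TMM, a factor that allows for differences in RNA composition between libraries. In bulk RNA, fewer expressing cells and less RNA per cell cannot be told apart. The erythroid factor GATA1 was present in every library, at 130 to 400 CPM. Of 6 markers of other cell types, CD3E, CD79A and MS4A1 stayed at or below 0.542 CPM, and the sum of the 6 was 9.73 to 19.2 CPM in mock DMSO, 13.4 to 23.0 in mock nilotinib, 37.0 to 47.6 in hemin DMSO and 9.92 to 23.8 in hemin nilotinib. The higher sum in hemin DMSO came from CD14, at 5.21 to 11.7 CPM there and no more than 0.912 CPM elsewhere, from COL1A1 and from CD3D, and its part in the results was not tested.

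Hemin nilotinib replicate 1 stood apart from replicates 2 and 3. For all 10 genes it was the lowest of the 3 libraries, as it was for 41.9% of all genes tested, and for 7 of the 10 either of the others was more than 2 times as high, as they were for 9.72% of all genes tested. Its log2 CPM correlated with those of replicates 2 and 3 at 0.981 and 0.969, and all other pairs of replicates at 0.980 to 0.992. TFRC, the transferrin receptor, was 2845 CPM in this library, within the 2503 to 3006 CPM of mock nilotinib, and 519 and 429 CPM in the others. By contrast NQO1 and HMOX1, which rose with hemin, were above every mock nilotinib library in it, with values given below. The main counts that rest on this group are therefore given with and without replicate 1, as are single values where it changed a call or the sign, and the origin of its difference was not tested. The fit estimates the spread of each gene over all groups. A library left out can therefore change the call of a comparison that does not hold it.

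ATF4 and its partners bind a composite element, a C/EBP site joined to an ATF site, and ATF and CREB factors bind a palindrome. The reference promoters of these genes are shown because the transcripts below moved together in part. RefSeq windows (GRCh38.p14, 250 bases before to 50 after each start) were found for 9 of the 10 genes. The core of the composite element, TGATGNAA, was searched on both strands and lay in windows of 3 of the 9 genes, against 4.46% of all gene names. The palindrome, TGACGTCA, lay in 1 of the 9, against 2.25%. The 4 stretches that hold them follow, 100 bases each, 5′ to 3′ on the strand of the gene, with the match in capitals. That of ATF3 is chr1:212565182-212565281 (plus strand), with the match beginning at position -191 from the start of transcription. That of ASNS is chr7:97872419-97872518 (minus strand), with the match at -68. That of CHAC1 is chr15:40953246-40953345 (plus strand), with the match on the opposite strand at -209, and that of PPP1R15A is chr19:48872311-48872410 (plus strand), with the palindrome at -58.
ATF3: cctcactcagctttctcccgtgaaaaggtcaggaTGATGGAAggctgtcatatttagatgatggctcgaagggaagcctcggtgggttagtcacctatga
ASNS: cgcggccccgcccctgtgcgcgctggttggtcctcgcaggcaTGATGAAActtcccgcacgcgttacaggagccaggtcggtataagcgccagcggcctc
CHAC1: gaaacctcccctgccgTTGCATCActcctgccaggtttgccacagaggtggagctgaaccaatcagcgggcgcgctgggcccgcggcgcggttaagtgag
PPP1R15A: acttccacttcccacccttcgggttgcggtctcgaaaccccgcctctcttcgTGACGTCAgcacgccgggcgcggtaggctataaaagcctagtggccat

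The windows of ATF4, DDIT3, TRIB3, SESN2 and DDIT4 held neither string. CCAAT, the box bound by NF-Y, and CCACG, the second part of the endoplasmic reticulum stress element, were each found in 5 of the 9, against 39.7% and 42.1% of gene names. A match says only that the letters are in the window, and the 4 matched genes did not all have their highest mean in the same group. ATF3, CHAC1 and PPP1R15A had it in hemin DMSO, and ASNS in hemin nilotinib. For ASNS the difference between these 2 groups missed the threshold (log2 fold change 0.35, edgeR adjusted p = 0.618), and their libraries overlapped.

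EIF2AK1 (ENSG00000086232, chr7:6022244-6059230, minus strand) encodes the eIF2α kinase that bound heme holds inactive. Its level was 390, 451 and 488 CPM in mock DMSO and 765, 933 and 991 CPM in mock nilotinib. It was 334, 314 and 291 CPM in hemin DMSO and 747, 900 and 894 CPM in hemin nilotinib. Every library with nilotinib was above every library without it, and the hemin DMSO libraries lay below those of mock DMSO. Nilotinib raised it by 1.02 on the log2 scale without hemin (SE 0.15, edgeR adjusted p = 3.81e-05) and by 1.44 with hemin (SE 0.15, edgeR adjusted p = 4.69e-07). Hemin alone lowered it, with a log2 fold change of -0.50 (SE 0.15, edgeR adjusted p = 0.00835). EIF2AK1 was the gene of the 10 that rose with nilotinib in both settings. Of its exon bases, 9.59% lie opposite AIMP2, and whether reads were counted by strand is not given in the sources used here. AIMP2 had 16.8 CPM or fewer on average in each group, against 313 CPM or more for EIF2AK1.

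ATF4 (ENSG00000128272, chr22:39519695-39522685, plus strand) encodes the factor at the center of the response. Its transcript was 482, 580 and 541 CPM in mock DMSO, 280, 381 and 417 CPM in mock nilotinib, 691, 595 and 644 CPM in hemin DMSO, and 138, 369 and 407 CPM in hemin nilotinib. Libraries with nilotinib were below those without it in both settings, with no overlap. The fall with nilotinib passed the test with hemin (log2 fold change -1.08, SE 0.28, edgeR adjusted p = 0.00288) and missed it without hemin (-0.57, SE 0.28, edgeR adjusted p = 0.105). Without hemin nilotinib replicate 1 both passed, at -0.73 and -0.57 (edgeR adjusted p = 0.00324 for the second). With hemin alone the transcript differed by 0.27 (SE 0.27, edgeR adjusted p = 0.43), although the 3 libraries of hemin DMSO all lay above those of mock DMSO.

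ATF3 (ENSG00000162772, chr1:212565334-212620777, plus strand) encodes a stress-induced bZIP factor that mostly represses. It was 32.5, 41.6 and 33.3 CPM in mock DMSO, 17.5, 15.6 and 14.3 CPM in mock nilotinib, 390, 387 and 398 CPM in hemin DMSO, and 8.39, 40.7 and 41.0 CPM in hemin nilotinib. The hemin DMSO libraries stood alone at the top and within 1.03 times of each other. Hemin alone raised ATF3 10.9-fold (log2 fold change 3.45, SE 0.38, edgeR adjusted p = 2.15e-06), the widest rise among the 10 genes. Nilotinib lowered it without hemin (log2 fold change -1.18, SE 0.36, edgeR adjusted p = 0.0145) and, by more, with hemin (-3.70, SE 0.39, edgeR adjusted p = 5.49e-07). The fall without hemin missed the threshold without mock nilotinib replicate 3, at -1.10 (edgeR adjusted p = 0.0551). Against mock DMSO, hemin and nilotinib together gave a log2 fold change of -0.25 (SE 0.35, edgeR adjusted p = 0.586), and of 0.19 without hemin nilotinib replicate 1 (edgeR adjusted p = 0.254).

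DDIT3 (ENSG00000175197, chr12:57516588-57521737, minus strand) encodes CHOP, a C/EBP-like factor linked to cell death under lasting stress. It was 60.3, 78.1 and 76.5 CPM in mock DMSO, 28.3, 23.0 and 19.4 CPM in mock nilotinib, 164, 161 and 167 CPM in hemin DMSO, and 13.9, 56.9 and 62.2 CPM in hemin nilotinib. Mock nilotinib lay wholly below mock DMSO and hemin DMSO wholly above it, while hemin nilotinib overlapped both mock groups. Hemin alone raised DDIT3 by 1.19 (log2, SE 0.34, edgeR adjusted p = 0.00775). Nilotinib lowered it in both settings, with log2 fold changes of -1.60 without hemin (SE 0.35, edgeR adjusted p = 0.00149) and -1.88 with hemin (SE 0.35, edgeR adjusted p = 0.000198). The difference between those changes was -0.28 (SE 0.48, edgeR adjusted p = 0.697). Of the exon bases of DDIT3, 31.6% lie opposite MARS and MBD6, so reads of MARS, which averaged 218 to 727 CPM over the groups, may enter if strand was not used.

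TRIB3 (ENSG00000101255, chr20:362835-397559, plus strand) encodes a pseudokinase that binds ATF4 and DDIT3 and limits AKT. It was 294, 395 and 397 CPM in mock DMSO, 39.9, 33.9 and 31.7 CPM in mock nilotinib, 380, 367 and 385 CPM in hemin DMSO, and 31.7, 62.2 and 70.0 CPM in hemin nilotinib. It split by nilotinib alone: the 6 libraries without it lay between 294 and 397 CPM and the 6 with it between 31.7 and 70.0 CPM. Nilotinib lowered TRIB3 10.3-fold without hemin (log2 fold change -3.36, SE 0.24, edgeR adjusted p = 1.71e-08) and 6.90-fold with hemin (-2.79, SE 0.23, edgeR adjusted p = 4.08e-08). With hemin alone the difference was 0.06 (SE 0.21, edgeR adjusted p = 0.838), and its sign turned without composition factors.

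CHAC1 (ENSG00000128965, chr15:40952962-40956519, plus strand) encodes an enzyme that breaks down glutathione. It was 46.4, 54.1 and 40.4 CPM in mock DMSO, 4.13, 1.78 and 2.16 CPM in mock nilotinib, 169, 102 and 148 CPM in hemin DMSO, and 0.719, 24.5 and 31.3 CPM in hemin nilotinib. The last group spread 43.5-fold between its lowest and highest library, the widest spread of the 10 genes. Nilotinib lowered CHAC1 17.3-fold without hemin (log2 fold change -4.11, SE 0.74, edgeR adjusted p = 0.000296) and 7.40-fold with hemin (-2.89, SE 0.67, edgeR adjusted p = 0.00131). Hemin alone raised it by 1.57 (SE 0.63, edgeR adjusted p = 0.0457). That call was lost in 15 of 21 other settings, DESeq2 among them (log2 fold change 1.61, DESeq2 adjusted p = 0.123), and whenever any 1 library of the compared groups was left out (1.38 to 1.72, edgeR adjusted p = 0.059 to 0.126), although the groups did not overlap.

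ASNS (ENSG00000070669, chr7:97852118-97872542, minus strand) encodes asparagine synthetase. It was 26.6, 20.1 and 24.5 CPM in mock DMSO, 10.4, 7.76 and 10.1 CPM in mock nilotinib, 30.1, 24.1 and 25.8 CPM in hemin DMSO, and 2.62, 30.2 and 68.7 CPM in hemin nilotinib. The mock nilotinib libraries were the lowest apart from hemin nilotinib replicate 1, and hemin nilotinib spanned the whole range. The log2 fold change with nilotinib was -1.33 without hemin (SE 0.60, edgeR adjusted p = 0.0862) and 0.35 with hemin (SE 0.58, edgeR adjusted p = 0.618). The sign with hemin turned without replicate 3 of hemin nilotinib, at -0.70. Without replicate 1 both passed the test, at -1.33 (edgeR adjusted p = 7.25e-05) and 0.89 (edgeR adjusted p = 0.00299), and the fall without hemin also passed without replicate 3 (edgeR adjusted p = 0.0288). ASNS shares 34.8% of its 150-base words with AC079781.5, a gene model on the same strand that covers 44.6% of its exon bases and that averaged 0.45 CPM or less in each group, so its count may miss reads that fit either. Reads may also be shared with the pseudogene ASNSP1, which averaged 8.51 to 21.8 CPM.

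SESN2 (ENSG00000130766, chr1:28259527-28282491, plus strand) and DDIT4 (ENSG00000168209, chr10:72273920-72276036, plus strand) encode Sestrin 2 and REDD1, which both restrain the growth kinase mTORC1. SESN2 was 172, 185 and 156 CPM in mock DMSO, 116, 108 and 92.0 CPM in mock nilotinib, 786, 410 and 374 CPM in hemin DMSO, and 69.0, 147 and 166 CPM in hemin nilotinib. DDIT4 was 466, 498 and 423 CPM in mock DMSO, 75.6, 53.0 and 42.9 CPM in mock nilotinib, 383, 378 and 393 CPM in hemin DMSO, and 9.28, 145 and 161 CPM in hemin nilotinib. The pair differed in what hemin did: every hemin DMSO library was above mock DMSO for SESN2 and below it for DDIT4. Hemin alone raised SESN2 by 1.61 (log2, SE 0.29, edgeR adjusted p = 0.000202), whereas DDIT4 differed by -0.27 (SE 0.55, edgeR adjusted p = 0.708). Nilotinib lowered DDIT4 8.08-fold without hemin (log2 fold change -3.01, SE 0.59, edgeR adjusted p = 0.000674) and 3.65-fold with hemin (-1.87, SE 0.57, edgeR adjusted p = 0.00892). For SESN2 the log2 fold change was -0.70 without hemin (SE 0.28, edgeR adjusted p = 0.057), a value that passed without replicate 1 or 3 of either hemin group (edgeR adjusted p = 0.00858 to 0.0418), and -2.04 with hemin (SE 0.29, edgeR adjusted p = 1.58e-05). An antisense gene model, DDIT4-AS1, covers 41.2% of the exon bases of DDIT4 and is listed at 0 CPM in every group.

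PPP1R15A (ENSG00000087074, chr19:48872392-48876057, plus strand) encodes GADD34, the inducible subunit of the phosphatase that acts on eIF2α. It was 208, 214 and 215 CPM in mock DMSO, 268, 292 and 302 CPM in mock nilotinib, 1276, 1596 and 1475 CPM in hemin DMSO, and 306, 533 and 579 CPM in hemin nilotinib. The 4 groups did not overlap: hemin DMSO was highest, followed by hemin nilotinib, mock nilotinib and mock DMSO. Hemin alone raised PPP1R15A 6.83-fold (log2 fold change 2.77, SE 0.20, edgeR adjusted p = 2.91e-08). Nilotinib with hemin lowered it 3.07-fold (log2 fold change -1.62, SE 0.19, edgeR adjusted p = 2.13e-06), while without hemin all 3 nilotinib libraries were higher (log2 fold change 0.44, SE 0.19, edgeR adjusted p = 0.072). That value passed without replicate 1 or 3 of hemin nilotinib (edgeR adjusted p = 0.00754 and 0.0475). PPP1R15A was thus the one of the 10 whose libraries moved with nilotinib in opposite directions without and with hemin, with no overlap in either.

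**Figure D1:**
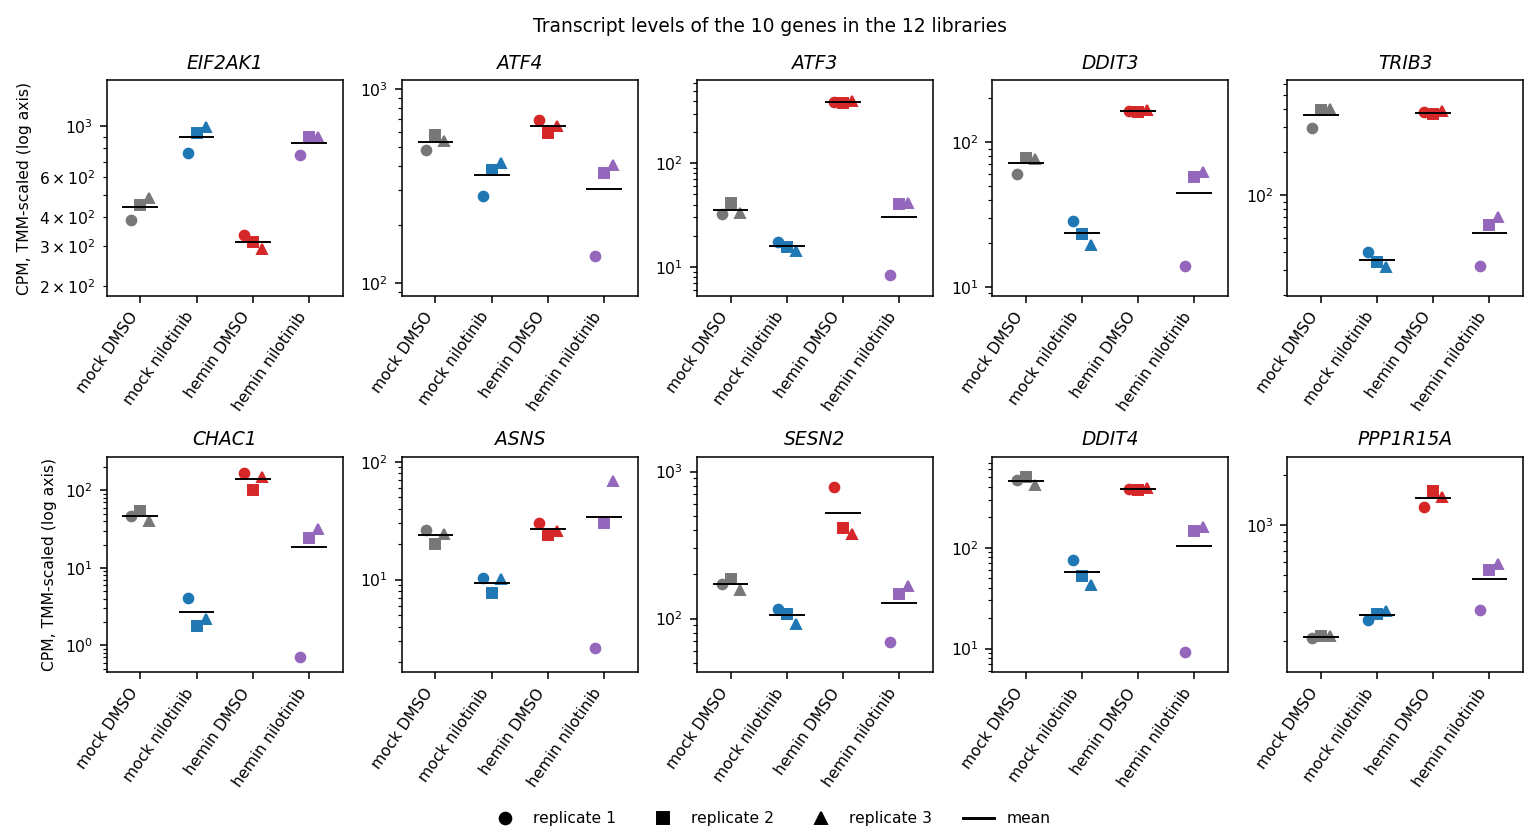
Transcript levels of the 10 genes in the 12 libraries, as TMM-scaled CPM on a log axis, with 1 panel per gene and groups along the x axis. Marker shape gives the replicate and the bar the mean of 3 libraries. Hemin nilotinib replicate 1 (circles) is the lowest of its group in all 10 panels, for example 0.719 CPM against 24.5 and 31.3 CPM for CHAC1.

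Without hemin, nilotinib lowered ATF3, DDIT3, TRIB3, CHAC1 and DDIT4 and raised EIF2AK1, and the other 4 genes missed the threshold. The falls ran from 2.26-fold for ATF3 to 17.3-fold for CHAC1. In this comparison 42.5% of all genes tested passed (20.7% higher and 21.8% lower), so that 6 of 10 is a share not far above the background, while the 5 falls compare with 21.8%. The median log2 fold change was -1.26 over the 10 genes and 0.00 over all genes. The libraries of the compared groups did not overlap for any of the 10, lower for 8 and higher for EIF2AK1 and PPP1R15A, beside 31.1% and 29.8% of all genes (61.0% in both directions). All 10 passed without hemin nilotinib replicate 1, 8 lower and 2 higher, where 47.4% of all genes did (24.4% lower and 23.0% higher). That library is in neither group compared here and enters through the spread, which is estimated over all groups. The log2 fold changes of ATF4 and ASNS stayed at -0.57 and -1.33. All 10 passed also in a fit of the 6 compared libraries alone, where 53.1% of all genes did.

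With hemin, nilotinib lowered 8 genes and raised EIF2AK1, and ASNS missed the threshold. The falls ran from 2.11-fold for ATF4 to 13.0-fold for ATF3. Of all genes 64.2% passed (31.8% lower and 32.4% higher), and the median log2 fold change was -1.88 over the 10 genes and 0.02 over all genes. The libraries did not overlap for 9 of the 10 genes, lower for 8 and higher for 1, beside 63.5% of all genes (32.0% lower and 31.5% higher). Without hemin nilotinib replicate 1 the same 8 were lower and ASNS joined EIF2AK1 as higher, with 64.1% of all genes called (31.7% lower and 32.4% higher). The log2 fold changes were then smaller for the 8 that fell: -3.26 for ATF3, -2.51 for TRIB3, -2.32 for CHAC1, -1.74 for SESN2, -1.46 for DDIT3, -1.38 for PPP1R15A, -1.33 for DDIT4 and -0.73 for ATF4.

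Hemin alone raised ATF3, PPP1R15A, SESN2, CHAC1 and DDIT3 and lowered EIF2AK1. The 5 rises ran from 2.29-fold for DDIT3 to 10.9-fold for ATF3. The transcripts of ATF4, TRIB3, ASNS and DDIT4 did not pass, with log2 fold changes between -0.27 and 0.27. Of all genes 53.6% passed (25.7% higher and 27.8% lower), and the median was 0.73 over the 10 genes and -0.05 over all genes. Groups did not overlap for 8 of the 10, higher for 6 and lower for 2, beside 62.7% of all genes (29.8% and 32.9%). These values and those for nilotinib alone share the mock DMSO libraries. Side by side, the genes that fell most with nilotinib alone, CHAC1, TRIB3 and DDIT4, were not the ones that rose most with hemin alone, ATF3 and PPP1R15A.

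**Figure D2:**
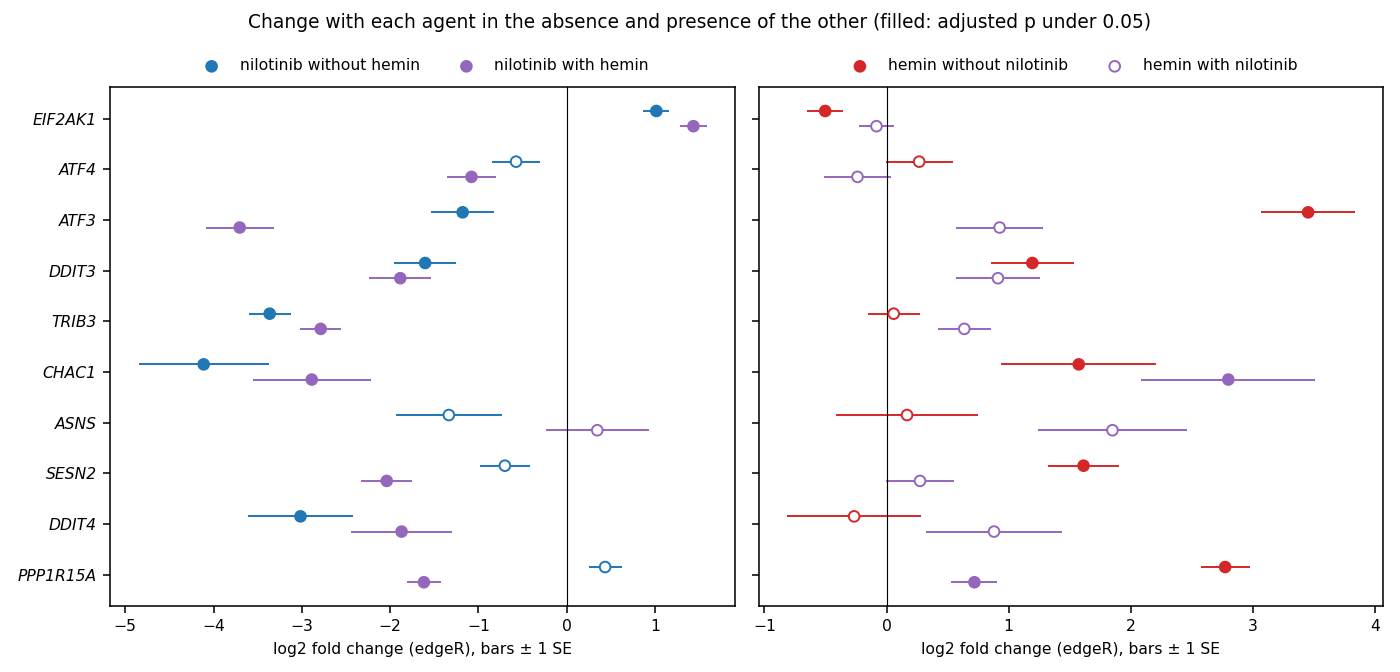
Log2 fold change of each gene (x axis, edgeR, bars of 1 SE either side) with nilotinib in the absence and presence of hemin (left) and with hemin in the absence and presence of nilotinib (right). Filled points passed an adjusted p of 0.05. ATF3 lies at -1.18 and -3.70 on the left, and PPP1R15A at 0.44 and -1.62.

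In the presence of nilotinib, hemin raised CHAC1 6.96-fold (log2 fold change 2.80, SE 0.71, edgeR adjusted p = 0.0316) and PPP1R15A 1.65-fold (0.72, SE 0.19, edgeR adjusted p = 0.0359), and the other 8 genes did not pass. Of all genes 5.80% passed (3.52% higher and 2.28% lower), and the median log2 fold change was 0.80 over the 10 genes and 0.03 over all genes. PPP1R15A was the only gene of the 10 whose groups did not overlap, beside 23.3% of all genes (11.7% higher and 11.6% lower). Replicates 2 and 3 of hemin nilotinib lay above all 3 mock nilotinib libraries for 8 genes, all but EIF2AK1 and ATF4, whereas replicate 1 lay below all of them for 8 genes, all but TRIB3 and PPP1R15A. How many of all genes were split in this way from replicate 1 was not counted, so neither count can be read as particular to the 10 genes.

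This comparison turned on that library. Without it 7 genes rose: CHAC1 by 3.36, ASNS by 2.40, DDIT4 by 1.42, ATF3 by 1.37, DDIT3 by 1.34, PPP1R15A by 0.95 and TRIB3 by 0.91 on the log2 scale, with edgeR adjusted p between 1.85e-07 and 0.000579. In that fit 13.3% of all genes passed (8.41% higher and 4.91% lower), and SESN2 differed by 0.57 (edgeR adjusted p = 0.102). None of the 10 passed without replicate 2 or 3 of hemin nilotinib, without replicate 2 or 3 of mock nilotinib, in the 6 libraries alone, or with limma-trend on FPKM. The values for CHAC1 were then 2.22 to 2.66 without 1 of those 4 libraries and those for PPP1R15A 0.55 to 0.76. Of all 20821 genes, as few as 198 passed in this comparison with 1 library left out. The counts for the 6 libraries and for limma-trend are given in the closing section. At such low shares 0 of 10 is near the background. The labels state no pairing, and same-numbered libraries of these 2 groups were taken as pairs only from their correlation. With the replicate as a block in those 6 libraries, a choice made after seeing the data, PPP1R15A passed (log2 fold change 0.67, edgeR adjusted p = 0.0302) and CHAC1 did not (2.25, edgeR adjusted p = 0.229).

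**Figure D3:**
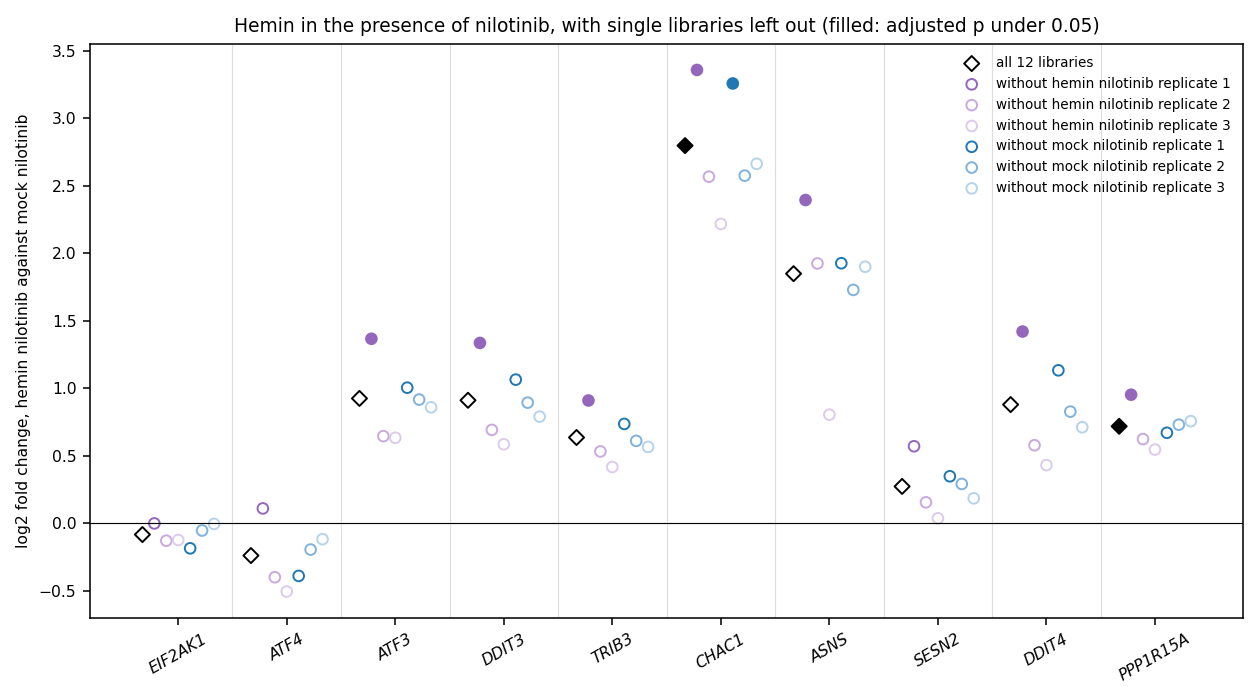
Log2 fold change (y axis) of hemin nilotinib against mock nilotinib for each gene, from all 12 libraries (diamonds) and with 1 library of either group left out (circles). Filled markers passed an edgeR adjusted p of 0.05. Leaving out hemin nilotinib replicate 1 gave the highest of the 7 values for each gene, from 0.00 for EIF2AK1 to 3.36 for CHAC1, and 7 genes passed.

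The question whether nilotinib acts differently on these genes once hemin is present was tested as the interaction, the effect with hemin minus that without. It was below 0 for ATF3 (log2 difference -2.53, SE 0.51, edgeR adjusted p = 0.00168), PPP1R15A (-2.05, SE 0.27, edgeR adjusted p = 6.05e-05) and SESN2 (-1.34, SE 0.40, edgeR adjusted p = 0.0191). They are also the genes with the largest rise with hemin alone, and the hemin DMSO libraries enter both values. Of all genes 30.1% passed this test (13.0% below 0 and 17.1% above), so 3 of 10 is a share at the background. SESN2 missed the threshold without hemin DMSO replicate 1, its library at 786 CPM, where the difference was -0.91 (edgeR adjusted p = 0.0578), and without composition factors (-1.12, edgeR adjusted p = 0.0532). Without hemin nilotinib replicate 1 the same 3 stayed below 0, and ASNS (2.23), CHAC1 (1.78), DDIT4 (1.69) and TRIB3 (0.85) were above 0, with 31.3% of all genes called (13.6% below 0 and 17.7% above).

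The groups can be ordered by level for each gene. ATF4, ATF3, DDIT3, TRIB3, CHAC1, SESN2 and PPP1R15A were highest in hemin DMSO, DDIT4 in mock DMSO, EIF2AK1 in mock nilotinib and ASNS in hemin nilotinib. ATF3, DDIT3 and SESN2 followed the order hemin DMSO, mock DMSO, hemin nilotinib and mock nilotinib, and of the 3 steps only the first passed. CHAC1 had the same order, with the first and last steps passed, and TRIB3 too, with only the middle step passed. For ATF4 and ASNS no step between neighbors passed, while for PPP1R15A the upper 2 did. Mock nilotinib against hemin DMSO, the groups with 1 agent each, separated all 10 genes without overlap, with 9 lower and EIF2AK1 higher, beside 70.2% of all genes (35.2% lower and 35.0% higher). All 10 passed, beside 65.8% of all genes (33.4% lower and 32.5% higher). The weakest of these calls was ASNS (log2 fold change -1.50, edgeR adjusted p = 0.0382), lost without any 1 of the 6 compared libraries (-1.58 to -1.38, edgeR adjusted p = 0.0637 to 0.105), and ATF4 (-0.84, edgeR adjusted p = 0.0134) missed the threshold without mock nilotinib replicate 1 (-0.69, edgeR adjusted p = 0.064).

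Hemin nilotinib against mock DMSO called 5 of the 10, beside 46.6% of all genes (24.2% higher and 22.4% lower): EIF2AK1 and PPP1R15A higher, and ATF4, TRIB3 and DDIT4 lower. Libraries did not overlap for EIF2AK1 and PPP1R15A, higher, and ATF4, TRIB3, CHAC1 and DDIT4, lower, beside 54.9% of all genes (27.8% and 27.1%). ATF4 (-0.81, edgeR adjusted p = 0.024) missed the threshold without mock DMSO replicate 2 (-0.76, edgeR adjusted p = 0.0652). CHAC1 (-1.31, edgeR adjusted p = 0.102) passed without hemin nilotinib replicate 1 (-0.75, edgeR adjusted p = 0.016) or 3 (-1.89, edgeR adjusted p = 0.0366), DDIT3 without replicate 3 (-1.02, edgeR adjusted p = 0.03) and ASNS without replicate 1 (1.06, edgeR adjusted p = 0.00106).

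Compared with each other per kilobase of gene length (FPKM), the genes covered more than an order of magnitude. In mock DMSO the mean was 222 FPKM for DDIT4, 210 for ATF4 and 104 for TRIB3, against 8.75 for ATF3 and 5.25 for ASNS. In hemin DMSO PPP1R15A was the most abundant at 472 ± 53.7 FPKM (SD, n = 3), followed by ATF4 at 258 ± 18.9 FPKM, and ATF3 had reached 97.7 ± 0.31 FPKM. In mock nilotinib EIF2AK1 led with 160 ± 21.6 FPKM, ahead of ATF4 at 142 ± 28.4 FPKM, and CHAC1 was last at 1.29 ± 0.60 FPKM. ATF4 ranked 2 or 3 among the 10 in each group, and its group means, 118 to 258 FPKM, varied least among the 10.

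Over the 12 libraries, the levels of 9 of the genes correlated positively with each other and EIF2AK1 ran against all of them. The closest pairs by Pearson's r of log2 CPM were DDIT3 with CHAC1 (0.98), ATF3 with SESN2 (0.96) and ATF3 with DDIT3 (0.94), and the loosest positive pair was DDIT4 with PPP1R15A (0.29). EIF2AK1 correlated with TRIB3 at -0.91 and with ASNS at -0.34. These are descriptions over 12 points that share 4 groups and the same scaling, and replicate 1 of hemin nilotinib was the lowest of its group for each gene.

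Among 12485 other genes with a mean of at least 100 counts, the nearest to CHAC1 in pattern were CEBPB (0.99), CTH (0.98) and SLC7A5 (0.98). Those nearest to DDIT3 were XBP1 (0.98), CEBPB (0.98) and MBNL2 (0.98), those nearest to DDIT4 were ADM2 (0.99), BCAT1 (0.98) and ATF5 (0.98), and those nearest to ATF4 were EIF1 (0.97), GARS (0.97) and CNNM2 (0.96). TRIB3 was nearest to ABLIM3 (0.99), S100P (0.99) and SLC38A1 (0.99), and ATF3 to COG3 (0.99), SLC3A2 (0.99) and KCNJ6 (0.99). EIF2AK1 was nearest to UROS (0.99), TLN1 (0.99) and ST6GALNAC4 (0.99), PPP1R15A to IER5 (0.99), UBB (0.99) and RC3H1 (0.99), SESN2 to NFE4 (0.98), BBS7 (0.97) and NOTCH1 (0.97), and ASNS to HOXB2 (0.92), ZSWIM4 (0.91) and the pseudogene ASNSP1 (0.88). Such likeness was common for some: r exceeded 0.9 for 1148 genes with EIF2AK1 and 726 with TRIB3, and for 58 with ATF4 and 2 with ASNS.

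Of the other eIF2α kinases, EIF2AK2 moved with nilotinib in the direction of EIF2AK1. EIF2AK4 moved in the opposite one, as did EIF2AK3 with nilotinib under hemin. EIF2AK3 was 17.4, 17.8 and 18.1 CPM in mock DMSO and 102, 113 and 126 CPM in hemin DMSO, and hemin alone raised it by 2.68 (log2, SE 0.17, edgeR adjusted p = 1.11e-08), while EIF2AK1 fell. In hemin nilotinib EIF2AK3 was 13.1, 18.3 and 21.0 CPM, lower than in hemin DMSO (log2 fold change -2.70, SE 0.17, edgeR adjusted p = 2.44e-09, and -2.53 without replicate 1), whereas EIF2AK1 was higher. EIF2AK4 fell with nilotinib without and with hemin (log2 fold changes -0.56 and -0.57, edgeR adjusted p = 0.00196 and 0.000844). EIF2AK2 rose with nilotinib by 0.54 and 0.34 (edgeR adjusted p = 0.00627 and 0.0452). PPP1R15B, the constitutive counterpart of PPP1R15A in dephosphorylating eIF2α, passed in none of these comparisons, with log2 fold changes between -0.05 and 0.34. Tested also were 19 genes for kinases, eIF2, its exchange factor eIF2B, the phosphatase and the mitochondrial relay to EIF2AK1. Of them 1 was higher and 9 lower with nilotinib alone, beside 20.7% and 21.8% of all genes. With nilotinib under hemin 3 were higher and 8 lower (32.4% and 31.8% of all genes), and with hemin alone 2 and 9 (25.7% and 27.8%). With hemin under nilotinib 0 passed, beside 5.80% of all genes. The relay genes OMA1 (1.32) and DELE1 (0.46) were the largest rises with nilotinib under hemin, and with hemin alone they fell (log2 fold changes -1.15 and -0.55).

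Partners of ATF4 fell with nilotinib as its targets did. Of 10 bZIP partners, 9 were lower without hemin and 10 with hemin, beside 21.8% and 31.8% of all genes. None was higher, and the medians were -1.54 and -1.49. CEBPB went from 139, 177 and 173 CPM in mock DMSO to 58.5, 49.3 and 41.1 CPM in mock nilotinib (log2 fold change -1.72, SE 0.35, edgeR adjusted p = 0.000896). CEBPG fell by 1.63 and ATF5 by 2.08 in the same comparison. Hemin alone raised 4 of the 10, beside 25.7% of all genes, while CEBPG differed by 0.12 (edgeR adjusted p = 0.746). The immediate early genes FOS (5.55) and JUN (3.49) led these rises, and they fell with nilotinib under hemin (-5.38 and -3.18).

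Other targets of ATF4 were mostly lower with nilotinib, and fewer of them rose with hemin. Of 19 genes for amino acid supply, 16 were lower and 1 higher with nilotinib alone, beside 21.8% and 20.7% of all genes. With nilotinib under hemin 13 were lower and 1 higher, beside 31.8% and 32.4% of all genes. The medians were -1.55 and -1.66. PSAT1, of serine synthesis, and CTH, of cysteine synthesis, fell by 3.51 and 3.09 with nilotinib alone, and GPT2, a glutamate-pyruvate transaminase, by 3.79 with nilotinib under hemin. With hemin alone PSAT1 and PHGDH, another enzyme of serine synthesis, differed by 0.07 and 0.02 (edgeR adjusted p = 0.895 and 0.975), beside 0.06 for TRIB3. Hemin alone raised 5 and lowered 3 of the 19, beside 25.7% and 27.8% of all genes. SLC7A11 (2.36) and SLC3A2 (1.91), the subunits of the cystine importer, rose most, and SLC6A9 (-0.72) and PSPH (-0.58) fell. The glycine transporter SLC6A9, which also serves heme synthesis, was the gene that rose with nilotinib (0.45 and 1.46).

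Of 21 targets that are regulators or secreted factors, 13 were lower and 3 higher with nilotinib alone, beside 21.8% and 20.7% of all genes. With nilotinib under hemin 15 were lower and 3 higher, beside 31.8% and 32.4% of all genes. NUPR1 (-5.56) and TNFRSF10B (-4.30) fell with nilotinib alone, whereas TXNIP, an inhibitor of glucose uptake that many conditions regulate, rose by 5.37 and SESN3, a relative of SESN2, by 1.52. Hemin alone raised 10 and lowered 2 of the 21, beside 25.7% and 27.8% of all genes. The rises were led by the autophagy receptor SQSTM1 (3.03) and HERPUD1 (2.80). Under nilotinib, hemin raised SQSTM1 (1.71) and TNFRSF10B (0.72) and lowered TRIB2 (-0.52). Without hemin nilotinib replicate 1 it raised 9 of these 21 genes and 11 of the 19 for amino acid supply, beside 8.41% of all genes. With all libraries it had raised 2 and 3, beside 3.52% of all genes.

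The endoplasmic reticulum stress genes of the ATF6 and XBP1 arms lie beside the PERK and ATF4 arm. They were lower with nilotinib in 14 of 14 cases both without and with hemin, beside 21.8% and 31.8% of all genes. The medians were -1.86 and -1.92. Hemin alone raised 8 of them and lowered 2, beside 25.7% and 27.8% of all genes. The chaperone HSPA5 (BiP) was 852, 1043 and 1021 CPM in mock DMSO, 159, 191 and 226 CPM in mock nilotinib, 5891, 5248 and 4438 CPM in hemin DMSO, and 210, 435 and 533 CPM in hemin nilotinib. HSPA5 thus had the group order of ATF3, with log2 fold changes of 2.42 for hemin alone (SE 0.27, edgeR adjusted p = 1.99e-06) and -3.72 for nilotinib under hemin (SE 0.28, edgeR adjusted p = 1.62e-08, and -3.42 without replicate 1).

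Markers of exposure moved beside these results. Of 6 genes that respond to heme and oxidants, 5 rose with hemin alone and 1, SLC48A1, fell (log2 fold change -0.74), beside 25.7% and 27.8% of all genes. With hemin under nilotinib 5 rose and 1 did not pass, beside 3.52% of all genes higher. HMOX1, the heme-degrading enzyme induced by heme, was at most 0.135 CPM in the 6 mock libraries, 31.7, 71.9 and 41.2 CPM in hemin DMSO, and 0.402, 1.89 and 2.20 CPM in hemin nilotinib. Its level was thus far lower with hemin when nilotinib was present, like those of ATF3 and PPP1R15A, and it was lowest in replicate 1. NQO1, an NRF2 target, was 612, 417 and 404 CPM in hemin DMSO and 63.4, 119 and 121 CPM in hemin nilotinib, above the 4.79 to 6.68 CPM of mock nilotinib, so that hemin raised it under nilotinib too (log2 fold change 4.11, SE 0.25, edgeR adjusted p = 2.13e-07). Of 6 listed targets of BCR-ABL1 signaling, the 5 tested all fell with nilotinib alone, SOCS2 by 3.35 and CISH by 2.97, beside 21.8% of all genes. With nilotinib under hemin 3 of the 5 fell and 2 did not pass, beside 31.8% of all genes lower. Hemin alone also lowered 4 of the 5 and raised 1, ETV5, beside 27.8% and 25.7% of all genes. The part that these exposures had in the levels of the 10 genes was not tested.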

How the data were processed

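The authors deposited raw counts of reads per gene for 12 libraries, without normalization, and FPKM per gene and library. The deposited FPKM are counts per kilobase divided by median-of-ratios size factors. A table of mean FPKM per group was not used. The submitters' processing notes name GRCh38.p12, DESeq and DESeq2, and the aligner, the counter and the use of strand are not given in the sources used here. The 10 genes and the lists were chosen with earlier results of these data known.

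The counts went into edgeR 4.0.16 (R 4.3.3). Low genes were removed with filterByExpr (10 counts, and 15 in total), followed by TMM factors and a quasi-likelihood fit with 1 mean per group over all 12 libraries. Tests were two-sided and p-values were adjusted by the Benjamini-Hochberg method over 20821 genes at a threshold of 0.05. SE was the absolute log2 fold change divided by the square root of F. There were 7 comparisons: each agent without and with the other, hemin nilotinib against mock DMSO, mock nilotinib against hemin DMSO, and the interaction.

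Alternatives were RLE or no composition factors, DESeq2 1.42.0, no filter beyond 1 count in all, a filter of 10 counts in each library, limma-trend (limma 3.58.1) on log2(FPKM + 1) and log2(FPKM + 0.1), a fit of only the libraries compared, a replicate block, and fits that each omit 1 library. Deviations of same-numbered libraries correlated above 0.1 in all 3 cases for a single pair of groups, the one of mock and hemin nilotinib (0.199 to 0.263), and the labels' numbers were taken to pair only those.

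Named genes were the 10, EIF2AK2, EIF2AK3, EIF2AK4, CEBPB, CEBPG, PPP1R15B and HMOX1, for each list the 2 highest and 2 lowest log2 fold changes among called genes averaging 100 counts or more, and for each of the 10 the 3 genes most like it. Some were given here and others only counted, and GATA1, CD14, CD3D, COL1A1, TFRC, NQO1, SOCS2, CISH, AIMP2, MARS and ASNSP1 were named as markers or neighbors. Exon overlap and shared 150-base words came from GENCODE 29 and promoters from RefSeq windows. On simulated counts for nilotinib with hemin over 20821 genes, the fit recovered 78% of 100 genes changed by 1 and 99% of 100 changed by 2 on the log2 scale, with 12 false calls. The simulation changed far fewer genes than the 64.2% called in the data and held no library like hemin nilotinib replicate 1. It therefore does not give the error rates of these data. Figures were made with Python 3.11.15, numpy 2.4.6 and matplotlib 3.10.9.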

Additional observations from a re-analysis of the deposited data

Results flagged for a closer look

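The effect of nilotinib differed between cells with and without hemin, by the test of the interaction, for 3 of the 10 genes, beside 30.1% of all genes tested. The log2 difference was -2.53 for ATF3, -1.34 for SESN2 and -2.05 for PPP1R15A (edgeR adjusted p = 0.00168, 0.0191 and 6.05e-05). ATF3 and SESN2 were lower with nilotinib in 3 of 3 libraries in both settings, SESN2 without hemin below the threshold of the test. PPP1R15A was higher in 3 of 3 libraries without hemin and lower in 3 of 3 with it. Groups of 3 libraries are too small for a test of single outlying libraries, so hemin nilotinib replicate 1 is given in the report by its values.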

How the results depend on the processing

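No call for the 10 genes turned its direction under any of the alternatives. Of 1470 values, 1354 kept direction and side of the threshold, 53 lost the call, 48 gained it, and 15 changed sign where neither value was called. With all genes with at least 1 count tested, 10 of the 10 genes passed with nilotinib alone (22.1% of all 40578 genes), 7 with hemin under nilotinib (1987 genes in all, 4.90%), 9 with hemin nilotinib against mock DMSO (24.6%) and 7 in the interaction (15.99%). In the compared libraries alone, 10 passed with nilotinib alone and 0 with hemin under nilotinib (213 genes in all). For hemin under nilotinib, where 1208 genes and 2 of the 10 passed in the report's fit, limma-trend called 741 genes on log2(FPKM + 1) and 694 on log2(FPKM + 0.1) with 0 of the 10, and DESeq2 called 1974 genes. The cause was not tested.

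With the replicate block in the 6 libraries of that comparison alone, a setting chosen after seeing the data, 1880 genes and 1 of the 10 passed. In all 12 libraries the block called 1587 genes there and the same number of the 10, 2. Beyond these groups the libraries share only a number, although each library of mock DMSO, mock nilotinib and hemin DMSO was closest to the library of its own number in the other 2 groups, a hint from the data. There the block moved the genes called from 8851 to 9294 for nilotinib alone, added PPP1R15A in that comparison (0.43, edgeR adjusted p = 0.0397), took away CHAC1 with hemin alone (1.57, edgeR adjusted p = 0.0545), and changed no other call of the 10.

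With single libraries left out, the genes called and the number of the 10 called ranged from 7068 to 9874 and 5 to 10 for nilotinib alone, 12309 to 13345 and 9 to 10 for nilotinib under hemin, 9665 to 11998 and 5 to 6 for hemin alone, 198 to 2774 and 0 to 7 for hemin under nilotinib, 7706 to 10547 and 4 to 7 for hemin nilotinib against mock DMSO, 12598 to 14339 and 8 to 10 for mock nilotinib against hemin DMSO, and 4867 to 6688 and 2 to 7 for the interaction. Where 1 library decided the count for the 10 genes in hemin under nilotinib, it was hemin nilotinib replicate 1 (7), any of replicates 2 and 3 of hemin nilotinib and of mock nilotinib (0), or mock DMSO replicates 2 and 3, mock nilotinib replicate 1 and hemin DMSO replicate 3 (1).

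Without composition factors the median of all genes moved by -0.24 for hemin alone, 0.18 for nilotinib under hemin and 0.21 for the interaction, and the share of calls that were higher went from 48.0% to 33.9% for hemin alone, from 60.7% to 49.2% for hemin under nilotinib and from 56.7% to 73.3% for the interaction. With limma-trend on log2(FPKM + 1) it was 48.6% for hemin under nilotinib and 46.4% for the interaction. In other genes the interaction had the opposite sign with limma-trend on log2(FPKM + 1) for ETV5 (-0.74) and NUPR1 (-0.84). The levels of CHAC1 and ASNS in hemin nilotinib spanned 43.5-fold and 26.3-fold, with replicate 1 lowest, which bounds the precision of their values there.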
